A study of Arabidopsis thaliana with 434 samples.

Results

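The transcripts of 49 NAC genes were compared between wild-type Arabidopsis thaliana leaves of 14 d and 18 d of leaf age, the first 4-day step of an ageing series. The members were the 10 wild-type samples titled 14 d and the 8 titled 18 d, 18 of the 434 samples of the series, and every NAC gene on the probe panel. The series measured wild type and 49 NAC insertion mutant lines at 14, 18, 22 and 26 d of leaf age with NanoString nCounter, in which fluorescent barcodes on target-specific probes are counted one by one without amplification. Both groups used here were untreated Col leaves with no mutation or transgene, from plants grown at 22°C in a cycle of 16 h light and 8 h dark. Each title carries a letter, A to D, and a number. The letters hold 4, 2, 2 and 2 samples at 14 d and 2 samples each at 18 d. The labels do not say what the letters mark, which leaf was taken, how many leaves or plants went into a sample, or whether any leaf was visibly senescent. Since they name no separate plants or cultures either, the p-values below rest on the sample-to-sample spread alone, and that spread may be technical.

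NAC proteins are plant transcription factors that bind DNA through a conserved amino-terminal domain. In leaves several of them act in a cascade downstream of ethylene, abscisic acid and jasmonic acid that starts the breakdown of chlorophyll and protein and the export of nutrients, while others delay that programme. A separate set drives the differentiation of water-conducting xylem vessels and of phloem sieve elements, the cells that carry sugars out of the leaf. In a whole leaf, fewer cells of a type and less RNA per cell cannot be told apart. The panel holds no general leaf marker, so the labelled tissue could not be checked beyond the vascular NAC genes it contains.

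The panel had 67 probes: 49 against NAC genes, 4 against the references UBQ10, TUB2, ACT2 and ACT7, and 8 negative and 6 positive controls. Total counts ran from 202316 to 640466 at 14 d (median 380162) and from 110689 to 258297 at 18 d (median 203287). No pair of samples in a group held identical counts or agreed within sampling noise (0 of 73 pairs). Background was set 2 SD above the average negative probe, at 15.4 counts over the 18 samples, and all 49 NAC genes exceeded it on average. Where single samples are called above background, the limit was set the same way from that sample's own negative probes. Normalised counts are raw counts over the sample's own mean of the 4 references, times 43036, which is that mean averaged over the series. The summed NAC counts were 14.8% to 21.8% of the summed reference counts at 14 d (median 16.5%) and 17.6% to 25.8% at 18 d (median 21.0%), so those ranges overlapped.

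Relative to the reference genes, 9 of the 49 NAC transcripts rose from 14 to 18 d (18.4%) and 8 fell (16.3%), at an adjusted p under 0.05 in edgeR's quasi-likelihood test with the title letter as block; either way this was 34.7% of the panel. The risers were ANAC059, ANAC055, ANAC048, ANAC046, ANAC056, ANAC021, ANAC079, ANAC083 and ANAC018, with fitted log2 changes of 2.07 down to 0.31. The transcripts that fell were ANAC086, ANAC010, ANAC045, ANAC101, ANAC057, ANAC028, ANAC084 and ANAC007, from -1.47 to -0.58. The median log2 change of all 49 was 0.09, with 31 above 0 and 18 below. Scaling to the geometric mean of the references, or to the references without UBQ10, gave 12 higher and 7 lower, so that the share of calls that were higher was 63.2% in place of 52.9%.

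**Figure D1:**
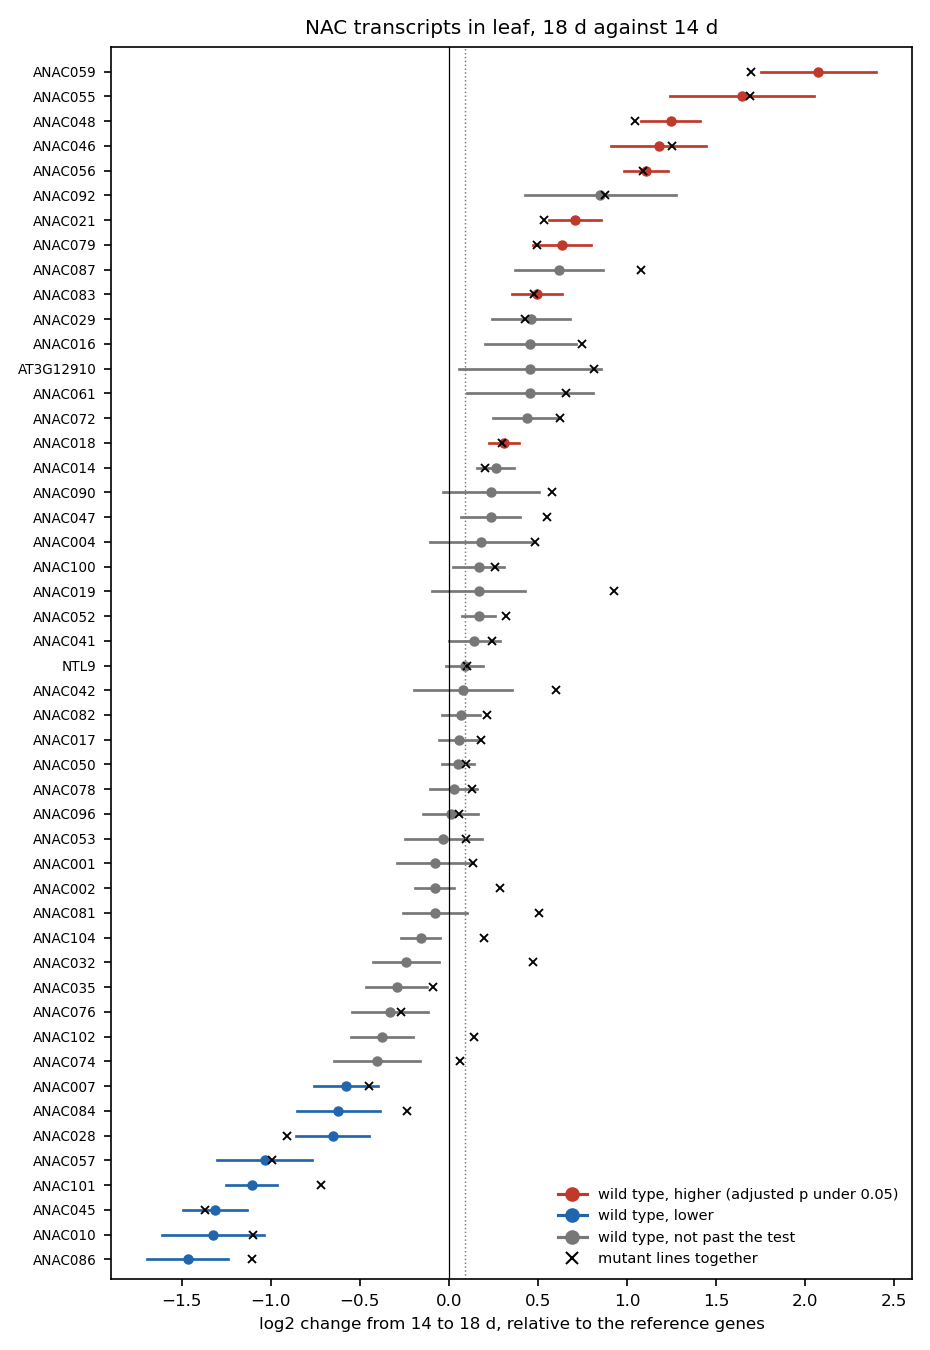
Fitted log2 change of each of the 49 NAC transcripts from 14 to 18 d, relative to the reference genes. Points with bars are wild type with 1 SE (10 and 8 samples), coloured by the edgeR call; crosses are the 49 mutant lines fitted together, and the dotted line is the wild-type median of 0.09. The 9 risers reach 2.07 in ANAC059 and the 8 that fell reach -1.47 in ANAC086; scaled to the positive control probes, ANAC021, ANAC079, ANAC083 and ANAC018 have changes below 0.

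These directions are relative to the reference genes, and the reference genes themselves gave fewer counts per spiked-in positive control count at 18 d. The ratio of summed reference to summed positive control counts was 7.47 to 11.9 at 14 d (median 9.89) and 4.50 to 9.38 at 18 d (median 5.18). Of the 8 samples at 18 d, 7 lay below every 14 d sample. The difference in log2 ratio was -0.86 over all samples and -0.52, -1.13, -0.92 and -0.85 in letters A, B, C and D.

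Per the labels 100 ng of total RNA entered each reaction, so counts scaled to the positive controls refer to a fixed mass of RNA. On that scale, chosen after seeing the data, the median change of the 49 transcripts was -0.69, a shift of -0.78 from the scale of the references. ANAC059 then was the only riser past the test (1 of 49), 29 transcripts fell, and all 8 that fell against the references were among them. The other 8 risers did not pass as risers: ANAC055, ANAC048, ANAC046 and ANAC056 had positive changes of 0.90, 0.44, 0.37 and 0.31, ANAC021, ANAC079 and ANAC083 had changes of -0.12, -0.17 and -0.31, and ANAC018 was called lower at -0.49. Whether RNA input, RNA composition or hybridisation moved that ratio was not tested. Set against the mean of all 4, the references had log2 differences between the ages of 0.10 for ACT2, -0.22 for ACT7, -0.14 for TUB2 and 0.02 for UBQ10. UBQ10 made up 75.2% to 80.6% of the reference counts at 14 d and 75.1% to 82.8% at 18 d, so that mean largely follows UBQ10, whose own difference from it is near 0 by construction.

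**Figure D2:**
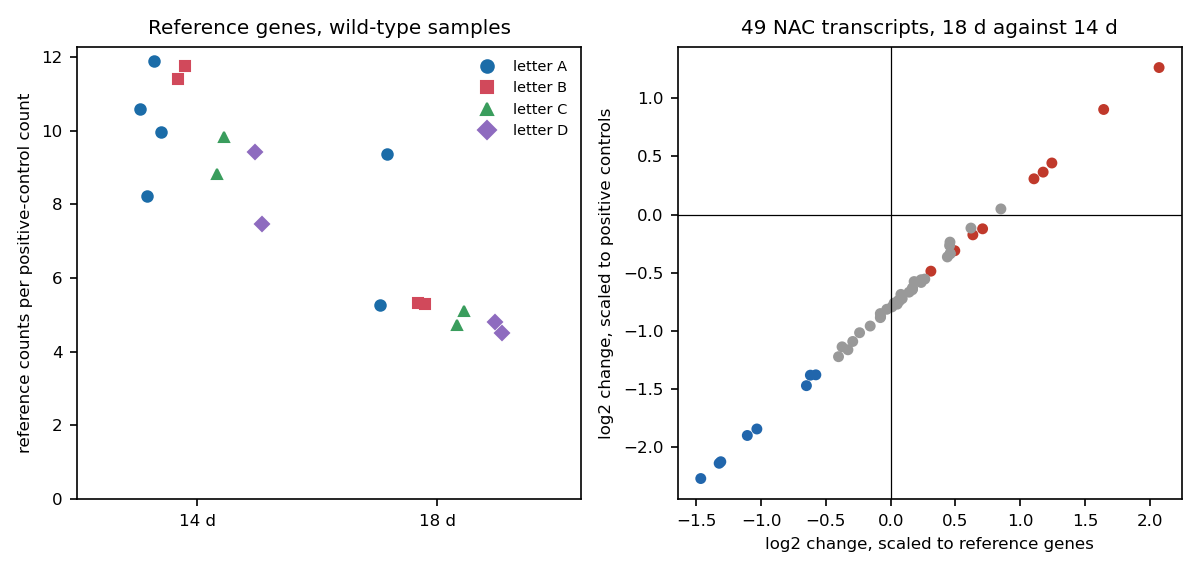
Left, summed reference gene counts per positive control count in each wild-type sample, by age and title letter; 7 of the 8 samples at 18 d lie below the lowest 14 d sample (7.47). Right, the log2 change of each of the 49 transcripts scaled to the reference genes (horizontal) and to the positive controls (vertical), with red and blue for those higher and lower on the first scale; ANAC059 lies highest and the whole set is shifted by -0.78.

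Of the 13 senescence-promoting NAC genes on the panel, 3 rose (ANAC059, ANAC055 and ANAC046), none fell and 10 did not pass the test; over the whole panel 18.4% rose, so this share was near the background. Their median log2 change was 0.46, against 0.09 for all 49; on the positive control scale it was -0.34, with 1 higher and 4 lower. With TMM, DESeq2, the geometric mean of the references or the references without UBQ10, 4 of the 13 were higher, ANAC087 being the addition.

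ANAC059 (AT3G29035), also known as ORS1 and a close relative of the senescence regulator ANAC092, showed the largest fitted rise. Its normalised count was 34.9 at the lowest, 310.0 at the median and 627 at the highest at 14 d, and 865, 1064 and 1738 at 18 d. Every 18 d sample lay above every 14 d sample. The fitted log2 change came to 2.07 (SE 0.32, adjusted p = 5.42e-05, edgeR), a 4.20-fold rise, and 1.90 without the lowest sample, the 14 d sample D2.

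ANAC055 (AT3G15500) acts with ANAC019 and ANAC072 in jasmonic acid and abscisic acid responses and in chlorophyll breakdown. Its probe gave few counts, with normalised values of 7.40, 31.7 and 152 at 14 d (lowest, median, highest) and 57.7, 109 and 272 at 18 d. The groups overlapped through the 14 d samples B1 and A2, and 3 of the 8 samples at 18 d exceeded all at 14 d. The log2 change was 1.64 (SE 0.40, adjusted p = 0.00387, edgeR).

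ANAC046 (AT3G04060), which activates chlorophyll catabolic genes, was at 51.8, 101 and 288 at 14 d and at 182, 217 and 359 at 18 d. All 14 d samples but B1 lay below every 18 d sample. The log2 change was 1.18 (SE 0.27, adjusted p = 0.00227, edgeR). Without the 6 samples of letter A neither ANAC055 (log2 change 1.23, adjusted p = 0.111, edgeR) nor ANAC046 (0.85, adjusted p = 0.121) passed.

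ANAC092 (AT5G39610), known as ORE1 and the best-studied promoter of age-dependent senescence, did not pass. Its normalised counts were 19.0, 439 and 1150 at 14 d and 385, 830 and 1313 at 18 d, and the groups overlapped widely. The log2 change was 0.85 with a 95% interval from -0.04 to 1.74 (adjusted p = 0.130, edgeR), and the change within letters was 1.50, 0.50, -0.22 and 2.69 in A to D.

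The value of 19.0 was the 14 d sample D2, where the other 9 ranged from 347 up. That sample also had the lowest ANAC059, ANAC055, ANAC046 and ANAC029 counts of its group, at 34.9, 7.40, 51.8 and 663. It was lowest as well for the risers ANAC048 and ANAC021, and highest for ANAC010, ANAC101, ANAC028 and ANAC057, which fell. The remaining called genes had these extremes in other 14 d samples. Without D2, 9 transcripts were higher and 7 lower at 18 d. In 5 mutant lines that share its letter, the 14 d samples with number 2 had ANAC092 at 155 to 266. Number 1 lay above number 2 in wild type and in 5 of 5 of those lines at both ages. In letter C at 14 d the order was the opposite, with number 2 higher in wild type and in all 8 lines. In letter B at 14 d number 1 was higher in wild type but in only 1 of 18 lines. At 18 d number 1 was higher in 14 of 18 lines of letter B and in 5 of 8 of letter C. In letter A it was higher in 0 of 17 lines at 14 d and in 7 of 17 at 18 d. What the numbers mark was not tested. The change of ANAC092 was 0.64 without D2 (adjusted p = 0.0846, edgeR), and it passed at 1.08 (adjusted p = 0.0438) without the highest 14 d sample, C2. ANAC092 also passed in the fit of all 434 samples (0.77, adjusted p = 0.0420, edgeR). It did not pass in the fit of all 34 wild-type samples (adjusted p = 0.115, edgeR) or with TMM (adjusted p = 0.169, edgeR).

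Of the other promoting members, ANAC087 (log2 change 0.62, adjusted p = 0.0572, edgeR), ANAC072 (0.44, 0.0782) and ANAC029 (0.46, 0.110) came nearest to the threshold. ANAC087 passed with TMM (adjusted p = 0.0470), DESeq2 (0.0433), the geometric mean of the references (0.0364) and without UBQ10 (0.0284). ANAC072 passed in the fit of all 434 samples (0.44, adjusted p = 0.0150, edgeR) and with limma on the authors' log2 values (0.49, adjusted p = 0.0485). It did not pass with TMM (adjusted p = 0.126, edgeR) or DESeq2 (adjusted p = 0.108). ANAC087 takes part in programmed cell death, ANAC072 (RD26) in abscisic acid and stress responses, and ANAC029 (AtNAP) in the activation of senescence through abscisic acid and chlorophyll loss. ANAC029 gave high counts at both ages, with 663, 1904 and 2855 against 1835, 2601 and 3990 at 18 d. ANAC087 gave few counts at both ages, with 25.8, 36.7 and 65.8 against 38.9, 49.1 and 131. ANAC016 had a change of 0.46, ANAC019 of 0.17, NTL9 of 0.09, ANAC053 of -0.03, ANAC002 of -0.08 and ANAC032 of -0.24, each with an adjusted p over the threshold.

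The NAP clade holds ANAC029 and its nearest relatives, and 2 of its 4 members rose, against 18.4% of the panel. ANAC056 (AT3G15510, NARS1) and ANAC018 (AT1G52880, NARS2) are known for their joint role in seed integument development. ANAC056 stood at 306, 461 and 623 at 14 d and at 695, 947 and 1499 at 18 d, with no overlap between the ages, and had the smallest adjusted p of the panel. Its log2 change was 1.11 (SE 0.12, adjusted p = 4.82e-06, edgeR). ANAC018 was the steadiest of the risers, at 482, 522 and 585 and then 579, 649 and 803, with 7 of 8 samples at 18 d above all at 14 d. Its change was 0.31 (SE 0.08, adjusted p = 0.00758, edgeR), but -0.49 per positive control count, and 0.23 without letter A, where it did not pass (adjusted p = 0.213). The median of the clade was 0.39 and, on the positive control scale, -0.41. ANAC056 lies next to ANAC055 and ANAC018 next to ANAC019 in the RefSeq order of genes; the first pair rose together, while ANAC019 did not pass beside ANAC018.

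The transcripts targeted by the microRNA miR164 include ANAC092, ANAC021, ANAC079 and ANAC100, and 2 of these 4 rose, against 18.4% of the panel. ANAC021 (AT1G56010), known as NAC1 and as a transmitter of auxin signals in lateral root formation, was at 412, 645 and 820.5 at 14 d and at 839, 991 and 1270.3 at 18 d. The ages did not overlap. Its log2 change was 0.71 (SE 0.15, adjusted p = 0.00104, edgeR), with -0.12 per positive control count. ANAC079 (AT5G07680) gave few counts, at 26.2, 31.4 and 45.8 and then 32.7, 51.2 and 82.2, and 5 of 8 samples at 18 d exceeded all at 14 d. Its change was 0.63 (SE 0.16, adjusted p = 0.00525, edgeR) and -0.17 per positive control count, and in letter B alone it was -0.13. It did not pass without letter A (0.44, adjusted p = 0.213, edgeR). ANAC100 had a change of 0.17 (adjusted p = 0.379, edgeR). The median of the 4 targets was 0.67 and that of the clade formed by ANAC092, ANAC059, ANAC079 and ANAC100 0.74; on the positive control scale these were -0.15 and -0.06. MicroRNAs were not measured here.

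Of the senescence-delaying genes, ANAC083 rose and ANAC042 did not pass. ANAC083 (AT5G13180), VNI2, represses xylem vessel formation and prolongs leaf life. Its probe gave the most counts of the NAC set, though counts of different probes are not levels on 1 scale, making up 23.0% of the NAC counts at 14 d and 26.1% at 18 d on average. Its normalised count was 5816, 6964 and 8503 at 14 d and 6163, 9257 and 13439 at 18 d, with overlap in 3 of 8 samples. The log2 change was 0.49 (SE 0.14, adjusted p = 0.00866, edgeR) and -0.31 per positive control count, and without letter A it did not pass (0.27, adjusted p = 0.338). In counts this was the largest single difference, 2862 of the 6807 by which the mean sum of normalised NAC counts was higher at 18 d; ANAC059 added 888 and ANAC056 523. ANAC042 (JUB1), which delays senescence and dampens hydrogen peroxide, had a change of 0.08 (95% interval -0.50 to 0.66).

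ANAC048 (AT3G04420), assigned to none of the lists, rose in all 4 letters. It stood at 49.7, 108 and 165 at 14 d and at 140.1, 231 and 415 at 18 d, and 6 of 8 samples at 18 d exceeded all at 14 d. The fitted rise was 1.24 (SE 0.17, adjusted p = 1.53e-05, edgeR), with 1.66, 0.55, 1.33 and 1.22 in letters A to D.

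**Figure D3:**
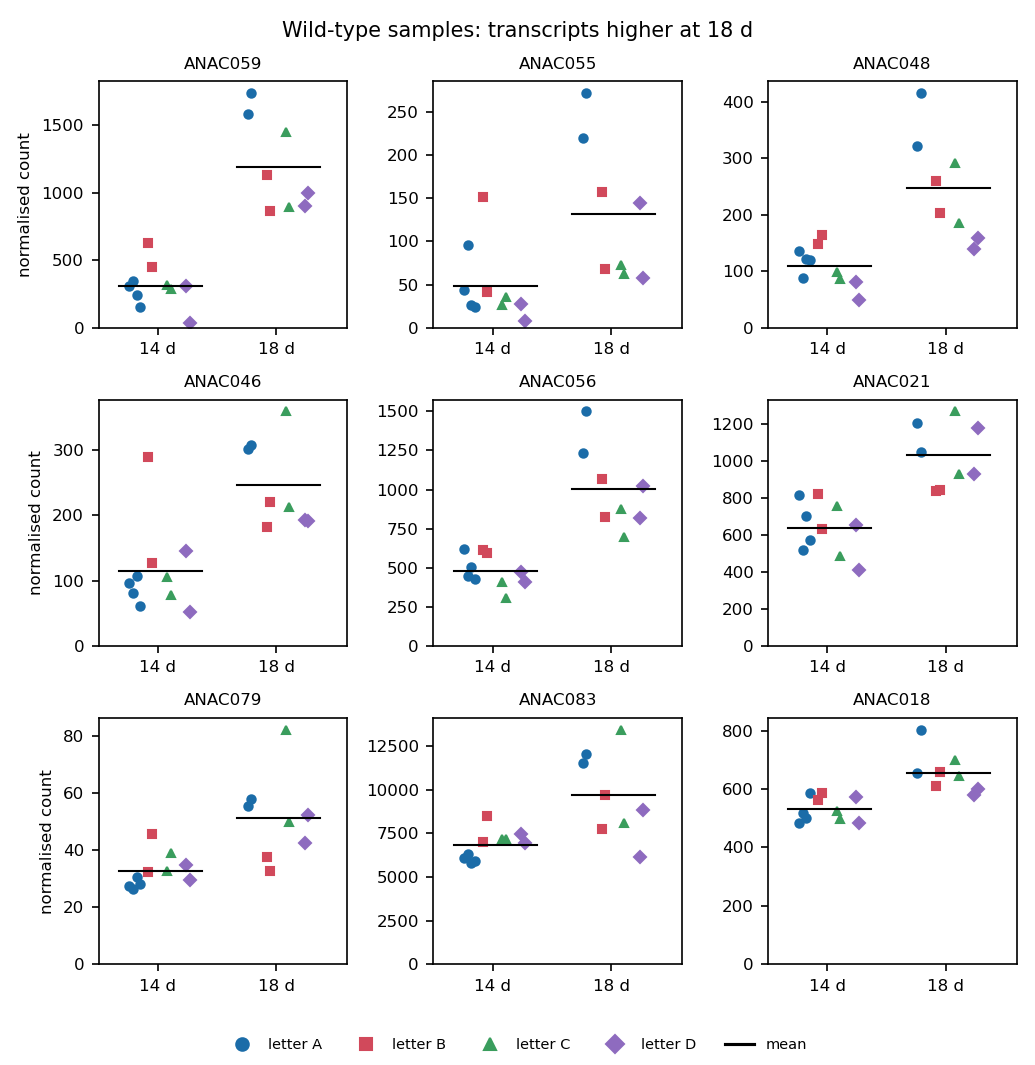
Normalised counts (vertical axes from 0) of the 9 risers in each of the 10 wild-type samples at 14 d and 8 at 18 d, with symbols for the title letter and a line at the group mean. ANAC059, ANAC056 and ANAC021 do not overlap between ages; ANAC021, ANAC079, ANAC083 and ANAC018 are not higher at 18 d when scaled to the positive controls.

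Vascular NAC genes made up 5 of the 8 transcripts that fell. Both phloem genes fell, and so did 3 of the 5 xylem genes, while none of the 7 rose. Over the panel 16.3% fell and 18.4% rose. The 7 leave out ANAC083, a repressor of xylem vessel formation listed with the senescence-delaying genes, which rose (0.49). The median change was -1.39 for the phloem pair and -0.58 for the xylem set, and it was below 0 under every scaling tried. All but ANAC104 gave few counts, and several reached the level of the negative probes at 18 d, which limits how large a fall these counts can show.

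ANAC086 (AT5G17260) and ANAC045 (AT3G03200) drive the loss of the nucleus in maturing sieve elements. ANAC086 had normalised counts of 19.7, 22.1 and 31.7 at 14 d and 3.55, 7.51 and 15.5 at 18 d, with no overlap. In raw counts this was 21 to 75 against 3 to 13, and 1 of the 8 samples at 18 d was above its own background. Its log2 change was -1.47 (SE 0.23, adjusted p = 5.42e-05, edgeR), and -2.68 after subtracting the mean of the negative probes. ANAC045 was at 29.3, 45.6 and 58.3 and then 12.6, 17.6 and 32.0, and 7 of 8 samples at 18 d lay below all at 14 d. Its change was -1.31 (SE 0.18, adjusted p = 1.89e-05, edgeR).

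Among the xylem genes, ANAC010 (AT1G28470, SND3), a regulator of secondary wall formation, stood at 17.8, 31.7 and 58.1 at 14 d and at 4.57, 11.6 and 26.8 at 18 d. It was above background in 3 of the 8 later samples. The log2 change was -1.32 (SE 0.28, adjusted p = 0.00143, edgeR). ANAC101 (AT5G62380, VND6), which directs the formation of metaxylem vessels, was at 23.9, 37.1 and 58.1 and then 10.9, 17.7 and 25.5, with a change below 0 in all 4 letters and of -1.19 in letter D. Its change was -1.11 (SE 0.14, adjusted p = 1.53e-05, edgeR). ANAC007 (AT1G12260, VND4) went from 49.0, 74.0 and 117 to 36.1, 53.5 and 67.9, with a change of -0.58 (SE 0.18, adjusted p = 0.0158, edgeR). ANAC076 (VND2), above background in 3 samples at 18 d, had -0.33, and ANAC104 (XND1), which blocks xylem differentiation, had -0.16. Neither passed. ANAC076 was called lower with limma on the authors' log2 values (-1.10, adjusted p = 0.0389), but not with TMM (adjusted p = 0.116, edgeR). In the mutant lines fitted together 4 of the 5 xylem genes were called lower, and ANAC104 was called higher (0.20, SE 0.04).

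The other 3 that fell are assigned to no list. ANAC057 (AT3G17730) was at 14.6, 29.8 and 43.3 at 14 d and at 4.73, 14.5 and 33.5 at 18 d, a log2 change of -1.03 (SE 0.27, adjusted p = 0.00525, edgeR). ANAC028 (AT1G65910) was at 11.5, 28.7 and 45.5 and then 9.97, 19.3 and 25.5, a change of -0.65 (SE 0.20, adjusted p = 0.0170, edgeR). The groups overlapped in both. ANAC084 (AT5G14000) was at 14.0, 18.6 and 28.4 and then 4.36, 12.6 and 20.8, above background in 3 of 8 samples at 18 d. Its change of -0.62 (SE 0.23, adjusted p = 0.0458, edgeR) lay at the threshold and was lost in 22 of 36 alternatives. Without letter A, ANAC057 (-0.77), ANAC028 (-0.54) and ANAC007 (-0.69) did not pass either.

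**Figure D4:**
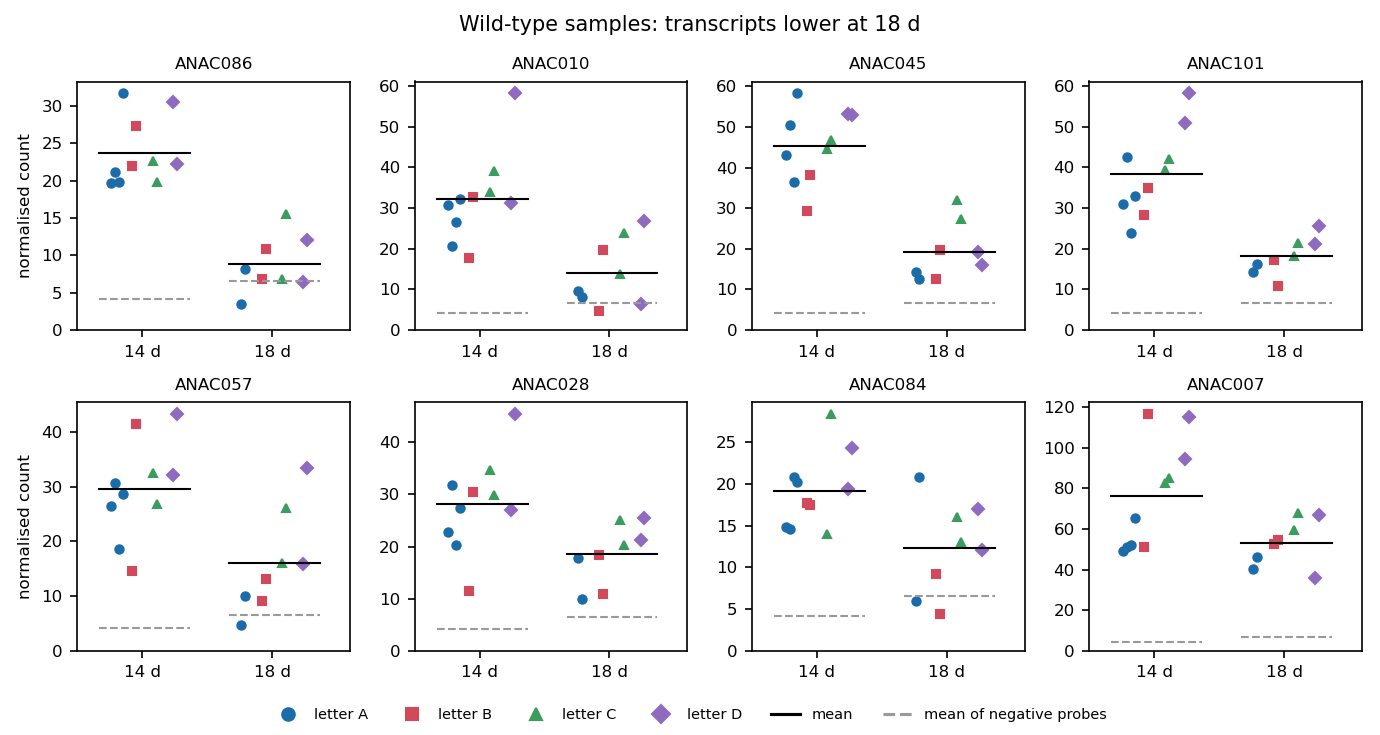
Normalised counts (vertical axes from 0) of the 8 transcripts that fell, in each wild-type sample at 14 d (10) and 18 d (8), with symbols for the title letter, a solid line at the mean and a dashed line at the mean of the negative probes. ANAC086 does not overlap between ages, and its 18 d values (3.55 to 15.5) lie around the negative probes.

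The stress-responsive SNAC-A clade showed 1 riser, ANAC055, among 7 members, a share near the 18.4% of the panel. Its median change was -0.08, against 0.01 without UBQ10 among the references and -0.85 on the positive control scale, where none of the 7 was higher and 4 were lower. ANAC002 (ATAF1), ANAC081 (ATAF2), ANAC032 and ANAC102, factors of abscisic acid, pathogen and oxidative stress responses, had changes of -0.08, -0.08, -0.24 and -0.38. ANAC102 had the smallest adjusted p of these (0.110, edgeR), with 835, 1343 and 2389 at 14 d and 750.4, 1061 and 1483 at 18 d; it was called lower with TMM (-0.46, adjusted p = 0.00816) and DESeq2 (-0.47, adjusted p = 0.00248). Of the 6 membrane-tethered NACs, which are released from membranes by cleavage, none passed. Their median was 0.07, -0.02 with TMM scaling and -0.73 on the positive control scale, where 5 of the 6 were called lower. By gene the changes ran from -0.03 for ANAC053 to 0.46 for ANAC016. ANAC014 was nearest to the threshold (0.26, adjusted p = 0.0559, edgeR) and passed as higher with the geometric mean of the references (0.33, adjusted p = 0.00225), without UBQ10 (0.34, adjusted p = 0.00141), with no letter block, in the fits of all 34 wild-type and all 434 samples, and in the exact permutation.

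The study singles out ANAC017, ANAC082 and ANAC090, known as regulators that hold back senescence before its onset. None of the 3 passed between 14 and 18 d. ANAC017, which relays signals from mitochondria, was at 3051, 3368 and 4216 and then 2697, 3883 and 4629, a log2 change of 0.06 (95% interval -0.18 to 0.30). ANAC082, a mediator of nucleolar stress, had 0.07 (-0.15 to 0.29), and ANAC090, linked to salicylic acid responses, had 0.23 (-0.33 to 0.80). On the positive control scale ANAC017 and ANAC082 were called lower at -0.74 each.

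Groups that did not overlap at all were found for 4 of the 49 genes (8.16%), ANAC059, ANAC056 and ANAC021 above and ANAC086 below, and these 4 were among the 17 called. Within letters, 16 of the 17 called genes had the same sign in all 4, ANAC079 in letter B being the exception. The median change of the 49 differed in level between letters, at 0.11, -0.24, 0.35 and -0.01 in A to D. The test of a change that differs between letters passed for no gene (0%, edgeR), with 4 at an unadjusted p under 0.05 and a smallest adjusted p of 0.318. The median coefficient of variation over genes was 30.2% at 14 d and 27.2% at 18 d.

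The mutant lines give the same age step in 200 samples that wild type does not share, though their titles carry the same letters A to D. Whatever else differed between the ages within a letter could enter both, which was not tested. Fitted together with genotype within letter as block, 36 transcripts were higher at 18 d (73.5%) and 9 lower (18.4%) by edgeR. That fit treats the line samples as independent, although samples of the same letter and number moved together across lines for ANAC092. The number of calls and the SEs for the lines can therefore overstate the precision. All 17 genes called in wild type passed in the lines with the same sign. Most of the panel passed in the lines, including most genes not called in wild type, so passing alone does not set these 17 apart. Over all genes, 41 of 49 had the same sign. Across the 49 genes the changes in wild type and lines had a Pearson r of 0.94, given as a description, since genes are not independent and all samples share the same probes and reference scaling. On the positive control scale the lines had 4 higher and 40 lower, and with TMM scaling 23 higher and 22 lower.

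Counting each line alone and leaving out the line named after the gene, ANAC059, ANAC048, ANAC046, ANAC056 and ANAC021 had a higher mean at 18 d in 48 of 48 lines, and ANAC055 in 47. ANAC045, ANAC010 and ANAC057 had a lower mean in 48 of 48 lines. Among genes not called in wild type, the lines with a higher mean ran from 16 for ANAC076 to 48 for ANAC072. The lines share letters and numbers, and 48 of the 49 have 2 samples per age. These counts of lines therefore do not stand for separate repeats. The fitted change of ANAC059 in the lines was 1.69 (SE 0.07) and that of ANAC086 -1.10 (SE 0.07).

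Of the 32 genes not called in wild type, 27 were higher and 1 was lower in the lines. ANAC092 had a change of 0.88 there (SE 0.09) with 44 of 48 lines up, close to the 0.85 of wild type. ANAC087 had 1.08, ANAC019 0.92 and ANAC072 0.62, the last in 48 of 48 lines. No difference between wild type and lines passed (0%, edgeR), with 6 at an unadjusted p under 0.05 and a smallest adjusted p of 0.101. Those with the smallest p were ANAC032 (wild type minus lines -0.71, 95% interval -1.20 to -0.22), ANAC081 (-0.59, -0.99 to -0.18) and ANAC102 (-0.52, -0.89 to -0.15). Of the line libraries at 18 d, those labelled anac053 A1 and anac055 A1 go against their labels in the targeted gene; leaving both out gave the same counts of 36, 9 and 0.

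The first 4-day step was then set against the later ones in all 34 wild-type samples, with 48 genes tested by edgeR. In that fit 10 transcripts rose from 14 to 18 d (20.8%) and 7 fell (14.6%), against 28 that rose (58.3%) and 7 that fell (14.6%) from 18 to 22 d, and 7 (14.6%) and 1 (2.08%) from 22 to 26 d. The first and second step share the 18 d samples, which enter them with opposite signs. The change differed between the first and second step for 11 genes (22.9%) and between the first and the last for 8 (16.7%).

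ANAC059 and ANAC048 changed more in the first step than in the second. ANAC059 had log2 changes of 2.00, 0.41 and 0.24 in the 3 steps, with mean normalised counts of 306 ± 159, 1195 ± 346, 1587 ± 299 and 1860.2 ± 313 (SD, n = 10, 8, 8 and 8). ANAC048 had changes of 1.21, 0.29 and -0.20, so that its mean of 247 ± 93.5 at 18 d lay close to the 255 ± 31.3 at 26 d. ANAC056 continued in the second step (1.09, 0.80 and 0.12) and differed from the last.

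The other 9 had a lower change in the first step than in the second: ANAC087, ANAC084, ANAC019, ANAC032, ANAC042, ANAC047, ANAC102, ANAC081 and ANAC002. ANAC087 had the largest difference, with changes of 0.62 and 3.05 and means of 39.2 ± 12.3, 58.6 ± 30.4, 499 ± 487 and 771 ± 278. ANAC019 had 0.21 and 1.99, and ANAC047 0.27 and 1.80. Of the SNAC-A clade, ANAC032, ANAC102, ANAC081 and ANAC002 had first changes between -0.36 and -0.04 and second changes of 1.40, 0.76, 0.88 and 0.75, each past the test. ANAC084 had -0.60, which did not pass in this fit (adjusted p = 0.180, edgeR), and then 1.62.

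The vascular genes ANAC101, ANAC086 and ANAC010 had first changes of -1.08, -1.45 and -1.31 and changes from 22 to 26 d of 0.41, 0.12 and -0.03, and differed between those steps; the level of the negative probes limits how far they could fall later. ANAC074 was above background in 0 of the 8 samples at 18 d (raw counts 4 to 13). Its first change was -0.36, which did not pass (adjusted p = 0.227, edgeR), and that from 22 to 26 d was 0.68. ANAC092 had 0.77, 0.36 and 0.69 in the 3 steps, with no difference past the test, and the trio of ANAC017, ANAC082 and ANAC090 had 0.39, 0.32 and 0.81 in the second step (adjusted p = 0.00631, 0.00666 and 0.0197, edgeR) with no difference from the first that passed. On the positive control scale 35 and 36 genes differed between the first step and the later steps, where the median ratio of reference to positive control counts was 5.18 at 18 d and 5.91 and 7.14 at 22 and 26 d.

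**Figure D5:**
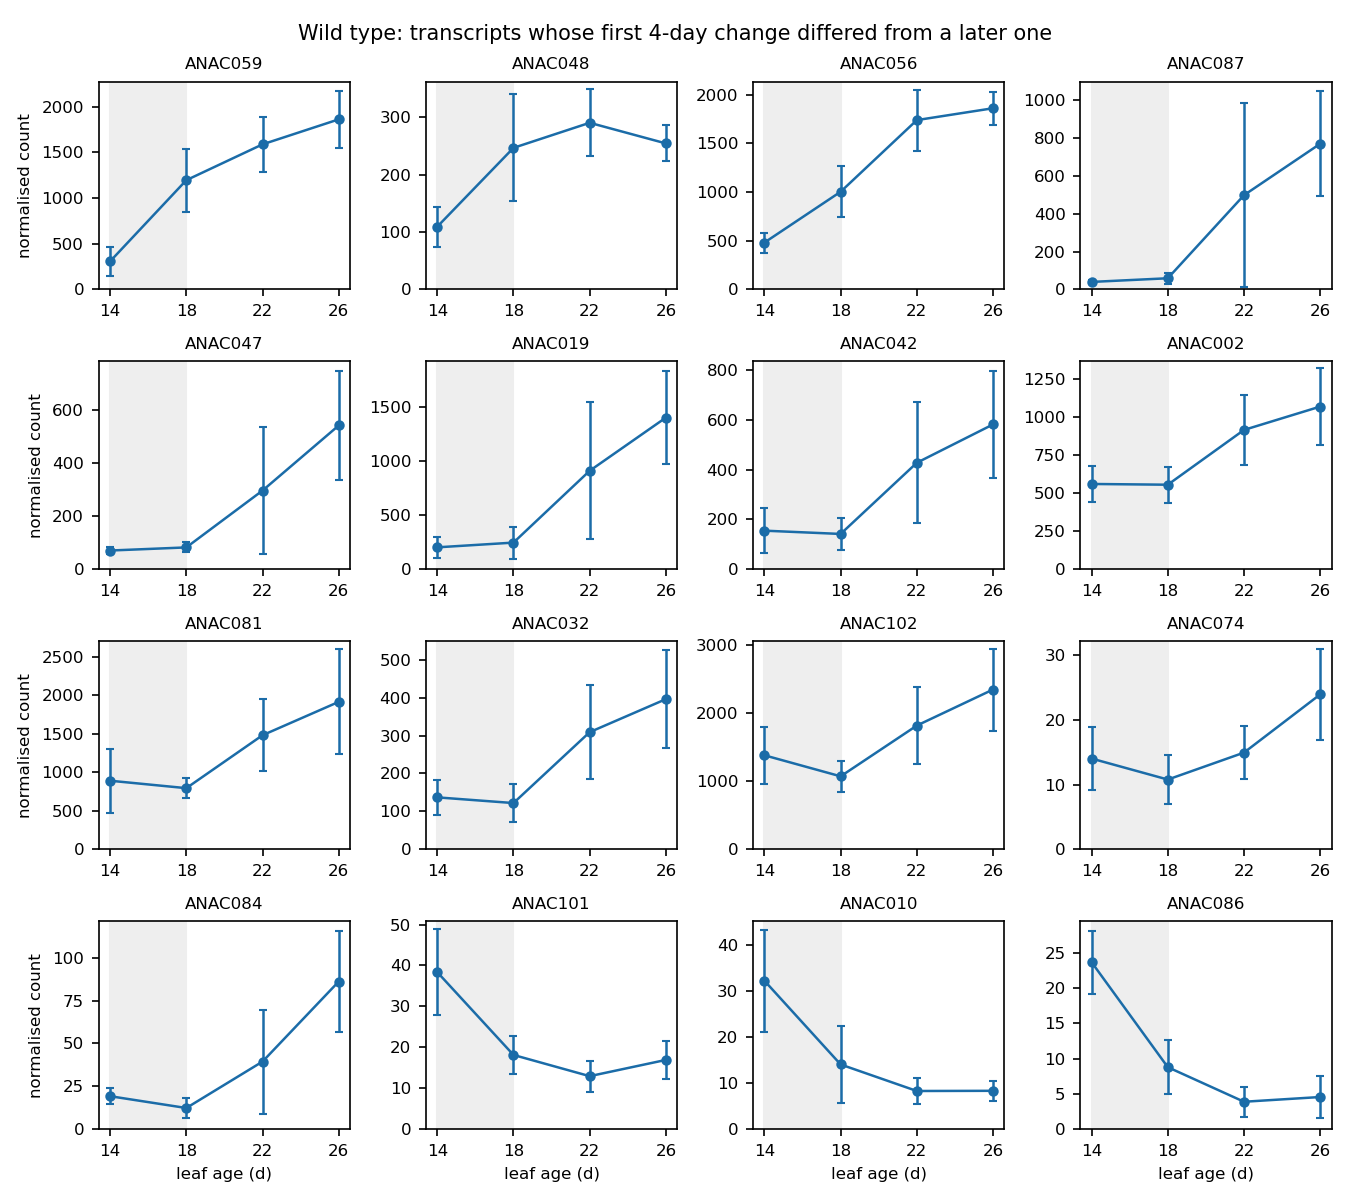
Mean normalised count ± SD by leaf age in wild type (n = 10, 8, 8 and 8 at 14, 18, 22 and 26 d; vertical axes from 0, the 14 to 18 d step shaded) of the 16 genes whose change in that step differed from a later one by edgeR, relative to the reference genes. ANAC059 and ANAC048 rise mainly in the shaded step, whereas ANAC087, ANAC047 and ANAC019 stay low until 18 d and reach 771, 541 and 1399.9 at 26 d.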

How the data were processed

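Raw probe counts were deposited by the authors as 4 tables, 1 per leaf age, without any scaling; per the labels' protocols 100 ng of total RNA entered each reaction. Not given in the sources used here: counting software, genome build. A table of log2 values deposited by the authors, which are background-reduced and scaled to the references as far as comparison with the counts shows, served only as an alternative. Control probes were sorted into positive and negative by their counts.

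Counts of 49 genes were fitted with edgeR 4.0.16 (R 4.3.3; glmQLFit, glmQLFTest), leaf age plus title letter as block, offset by the log of the mean of ACT2, ACT7, TUB2 and UBQ10, with Benjamini-Hochberg adjustment over genes and a threshold of 0.05. The deviations of the letter means from their group mean correlated between ages in all 4 letters (0.24 to 0.58). The main edgeR fit was tried on simulated counts with a common dispersion, no difference between letters and no background filter. Those settings differ from the data, so that run does not measure the accuracy of the fit here. Intervals are 95%. Precision is limited by low counts for 10 genes that were not above background in every sample at 18 d. Alternatives were TMM, DESeq2 1.42.0, limma 3.58.1 on the authors' log2 values, an exact permutation within letters of log2 of the normalised count plus 1 (3240 arrangements), other references, positive control scaling, background subtraction, filters at 0 or 100 counts, other blocks and sample sets, and leaving out samples.

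Members and gene lists were chosen with earlier results of these data known. Named were all genes past the test, all list members, and for other comparisons the 10 with the smallest adjusted p. Names and gene order came from RefSeq TAIR10.1 (53 of 53 loci matched). No sequences are shown.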

Additional observations from a re-analysis of the deposited data

Results flagged for a closer look

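In 78 groups of wild-type values for the named genes (1 gene at 1 age), 6 held a sample far from the others by Dixon's criterion, which chance gives in about 1 of 20 groups. The 14 d sample D2 was far below its group for ANAC092 (19.0), ANAC059 (34.9) and ANAC029 (663). The 14 d sample B1 was far above for ANAC081 (1997). At 18 d, sample D1 was far above for ANAC019 (608) and sample A2 for ANAC087 (131).

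The tested difference between the first 4-day log2 change and the second was positive for ANAC059 (1.59) and ANAC048 (0.92) and negative for ANAC087 (-2.43), ANAC084 (-2.22), ANAC019 (-1.78), ANAC032 (-1.61), ANAC042 (-1.58), ANAC047 (-1.54), ANAC102 (-1.12), ANAC081 (-0.98) and ANAC002 (-0.80). Between the first and the third it was positive for ANAC059 (1.76), ANAC048 (1.41) and ANAC056 (0.97) and negative for ANAC084 (-1.77), ANAC086 (-1.57), ANAC101 (-1.49), ANAC010 (-1.28) and ANAC074 (-1.04).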

How the results depend on the processing

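Leaving out samples singly gave 9 to 12 transcripts higher and 7 to 8 lower at 18 d, and 15 of the 17 calls passed without each of the 18 samples in turn; ANAC084 and ANAC028 did not. In every alternative that tested them ANAC059, ANAC101, ANAC045, ANAC010 and ANAC086 (5 genes) stayed called. Fewer transcripts were lower at a mean of at least 100 counts (0; these weak genes are then not tested), with no letter block (5), and without letter A (5) or D (5). Transcripts higher numbered 4 without letter A, which has 6 of the 18 samples, and 14 without letter B. The cause was not tested. Without A2 and C1 of 18 d, the samples with most NAC counts per reference count, 7 were higher and 8 lower. On the positive control scale 1 was higher and 29 lower, with the sign turned for ANAC079 (-0.17), ANAC083 (-0.31), ANAC021 (-0.12) and ANAC018 (-0.49), and for genes uncalled before but called lower there: ANAC014 (-0.56), ANAC017 (-0.74), ANAC041 (-0.67), ANAC050 (-0.77), ANAC052 (-0.65), ANAC082 (-0.74), ANAC096 (-0.80), ANAC100 (-0.64), ANAC078 (-0.76) and NTL9 (-0.72). On it the intervals gave 35 and 36 differences, and the lines 4 higher and 40 lower. With TMM the lines gave 23 and 22, and the first against the third step 15 genes. The first against the second step gave 6 genes with no letter block. A replicate block of letter and number gave 6 higher and 5 lower, and 5 genes for the first against the second step. It ended the calls of ANAC018, ANAC079, ANAC083, ANAC007, ANAC028 and ANAC084 (adjusted p 0.0527 to 0.0915, edgeR). Same-number deviations correlated between the ages above 0 for all 8 numbers, from 0.06 for B2 to 0.67 for D2. With the mean of letter and age removed, the correlation ran from -0.13 in letter A to 0.52 in letter D. Of the 8 samples at 18 d, 2 correlated best with their own number. These values do not settle whether the numbers pair the samples. Genes called in neither fit changed sign 82 times, over 22 genes, and have no direction here. Depth at 18 d limits what can be said of weak genes.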
